A study of Mus musculus with 12 samples.

Results

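Proteasome subunit genes were taken from an RNA sequencing table of mouse bone marrow as all rows whose protein-coding symbol begins with Psma, Psmb, Psmc or Psmd and a digit, together with Psme1 to Psme4. The rule found 43 of the 28987 genes in the table. They comprise 7 alpha ring genes (Psma1 to Psma7), 4 structural and 3 catalytic beta ring genes, the immunoproteasome genes Psmb8 and Psmb10, thymus-type Psmb11, testis-type Psma8, 6 base ATPases (Psmc1 to Psmc6), 3 further base genes, 8 lid genes, 3 assembly chaperones with a Psmd symbol (Psmd5, Psmd9 and Psmd10), 3 genes of the 11S activators and Psme4, which encodes the activator PA200. Psmc3ip also met the rule, although it encodes a meiotic recombination cofactor and no proteasome subunit, and it is named apart. The immunoproteasome gene Psmb9 is not analysed here.

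The proteasome is the main protease for ubiquitin-tagged proteins in the cytosol and nucleus. Its 20S core is a barrel of outer alpha rings, which gate entry, around inner beta rings, of which Psmb5, Psmb6 and Psmb7 encode the subunits that cut peptide bonds. The 19S cap holds a base, whose ATPases unfold substrates, and a lid, which removes ubiquitin. Interferon-inducible Psmb8, Psmb9 and Psmb10 replace the catalytic subunits in the immunoproteasome, which makes peptides for presentation on class I molecules and is abundant in blood cells. Psma8 takes the place of Psma7 in the proteasome of male germ cells.

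The promoters of a constitutive pair, Psmb5 and Psmb6, are shown beside those of the interferon-inducible Psmb8 and of Psme1, an 11S activator gene, because these genes differed in how they varied between the libraries. The windows run from 250 bases before to 50 bases after the gene start, 5′ to 3′ in the direction of transcription (RefSeq, GRCm38.p6), and capitals mark a motif match. In Psmb5 (chr14:54617946-54618245, minus strand) and Psmb6 (chr11:70525107-70525406, plus strand) it is the antioxidant-like element TGACNNNGC, a type of site through which the factor encoded by Nfe2l1 is known to act on proteasome genes. In Psmb8 (chr17:34197945-34198244, plus strand) it is the gamma-activated site TTCNNNGAA, and in Psme1 (chr14:55578244-55578543, plus strand) the interferon-stimulated element, GAAA and GAAA with any 2 bases between, read on the opposite strand. No match shown overlaps a match of another motif.
Psmb5: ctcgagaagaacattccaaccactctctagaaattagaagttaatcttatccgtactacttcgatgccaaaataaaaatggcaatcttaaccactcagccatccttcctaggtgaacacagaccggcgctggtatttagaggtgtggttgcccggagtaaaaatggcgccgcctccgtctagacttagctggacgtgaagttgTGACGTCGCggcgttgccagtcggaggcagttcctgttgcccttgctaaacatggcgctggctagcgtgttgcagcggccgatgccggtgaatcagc
Psmb6: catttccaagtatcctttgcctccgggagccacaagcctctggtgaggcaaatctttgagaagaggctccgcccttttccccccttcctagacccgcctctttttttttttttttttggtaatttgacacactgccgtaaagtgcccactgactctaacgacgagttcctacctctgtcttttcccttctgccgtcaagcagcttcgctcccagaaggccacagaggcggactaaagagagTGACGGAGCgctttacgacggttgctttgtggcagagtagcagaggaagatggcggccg
Psmb8: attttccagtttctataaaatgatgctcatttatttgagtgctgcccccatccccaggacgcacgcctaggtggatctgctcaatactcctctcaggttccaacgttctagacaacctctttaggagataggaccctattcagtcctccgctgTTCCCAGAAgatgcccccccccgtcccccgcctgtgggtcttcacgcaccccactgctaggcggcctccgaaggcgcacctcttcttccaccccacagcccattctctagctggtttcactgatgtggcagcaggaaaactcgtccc
Psme1: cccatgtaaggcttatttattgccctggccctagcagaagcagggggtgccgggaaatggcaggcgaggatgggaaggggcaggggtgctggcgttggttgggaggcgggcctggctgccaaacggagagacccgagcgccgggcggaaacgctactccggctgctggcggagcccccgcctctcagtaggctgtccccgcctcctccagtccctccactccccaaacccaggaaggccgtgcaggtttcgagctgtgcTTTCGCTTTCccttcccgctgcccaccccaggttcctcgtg
The match begins 47 bases before the start in Psmb5, 9 before it in Psmb6, 97 before it in Psmb8 and 9 after it in Psme1. The search used 38 windows of 35 of the 43 genes, and Psma8 and Psmc3ip were among the genes left out. Over both strands, TGACNNNGC lay in 6 of these windows (15.8%), against 12.4% of all 32851 promoter windows. The interferon-stimulated element lay in 4 of the 38 windows (10.5%, against 3.44% of all), TTCNNNGAA in 2 (5.26%, against 8.30%) and the NF-Y box CCAAT in 13 (34.2%, against 37.4%). The promoters shown were picked as examples, and the motifs do not divide the genes by role. The interferon-stimulated element also matched in Psmb3, Psmd4 and Psmd9, TTCNNNGAA in Psmd2, and TGACNNNGC in Psmc6, Psmd9, Psmd12 and Psme4. Interferon-inducible Psmb10 and both windows of Psme2 held no match of any of these motifs. These matches describe letters in the window only.

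The table holds 12 libraries in 6 groups of 2, all from C57BL/6 mice. Stem and progenitor cells (HSCPs in the labels, HSPC here), enriched with a CD117 selection kit, came from CBL/RUNX1 mutant (double mutant), CBL mutant, RUNX1 mutant and wild type marrow, and sorted Ly6G+ myeloid cells came from CBL/RUNX1 mutant and wild type marrow. CBL ubiquitinates activated receptors, and RUNX1 is a transcription factor needed for blood formation. The labels name neither the alleles nor how they were introduced, state that marrow came from individual mice without naming the mouse of each library, and state that the mutant clone was sorted by FACS, so a difference in sorting between mutant and wild type cells cannot be told apart from genotype.

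Values are TPM, the length-corrected share of a gene in a library's transcripts, and no read numbers come with them, so the depth of each library is unknown. Runx1 stood at 257 and 248 TPM in double mutant HSPC and at 170 and 45.3 in RUNX1 mutant HSPC, against 12.7 and 11.3 in wild type HSPC. Cbl stood at 103 and 115 TPM in double mutant and at 73.7 and 81.3 in CBL mutant HSPC, against 31.02 and 17.9 in wild type HSPC. The pair of neutrophil genes S100a8 and S100a9 took 8.11% and 9.54% of TPM in double mutant HSPC, against 28.9% and 31.4% in wild type HSPC. The 8 HSPC markers summed to 464 to 590 TPM in double mutant HSPC, against 154 to 174 TPM in wild type HSPC. The replicates of RUNX1 mutant HSPC and those of double mutant Ly6G+ cells differ far more from each other than other replicates do. The SD over genes of the log2 difference between replicates was 0.71 in the RUNX1 mutant and 0.998 in the double mutant Ly6G+ pair, against 0.30 to 0.38 in the other 4 pairs. Which library of such an uneven pair departs cannot be told from 2 libraries, so results are also given without library 1 and without library 2 of both pairs.

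The core genes were among the well-expressed genes of every library. Over all 12 libraries, mean levels in the alpha ring ran from 86.0 TPM for Psma5 to 206.8 TPM for Psma7, and in the structural beta ring from 122.8 TPM for Psmb2 to 229.6 TPM for Psmb3. The catalytic genes lay close together, from 144 TPM for Psmb5 to 177.6 TPM for Psmb6. Base ATPases had lower levels, from 61.2 TPM for Psmc2 to 130.1 TPM for Psmc3. In the lid, Psmd13 was highest at 77.3 TPM, and Psmd8 lay far below the rest at 3.13 TPM. The 11S genes ran from 81.3 TPM for Psme3 to 207.9 TPM for Psme1, while Psme4 averaged 15.8 TPM. Immunoproteasome Psmb8, averaged 195.4 TPM, with group means from 302.1 TPM in double mutant Ly6G+ cells to 100.4 TPM in wild type Ly6G+ cells, and Psmb10 averaged 62.9 TPM. Psmb11, known from thymic epithelium, stayed between 0.0706 and 0.466 TPM and was not tested.

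**Figure D1:**
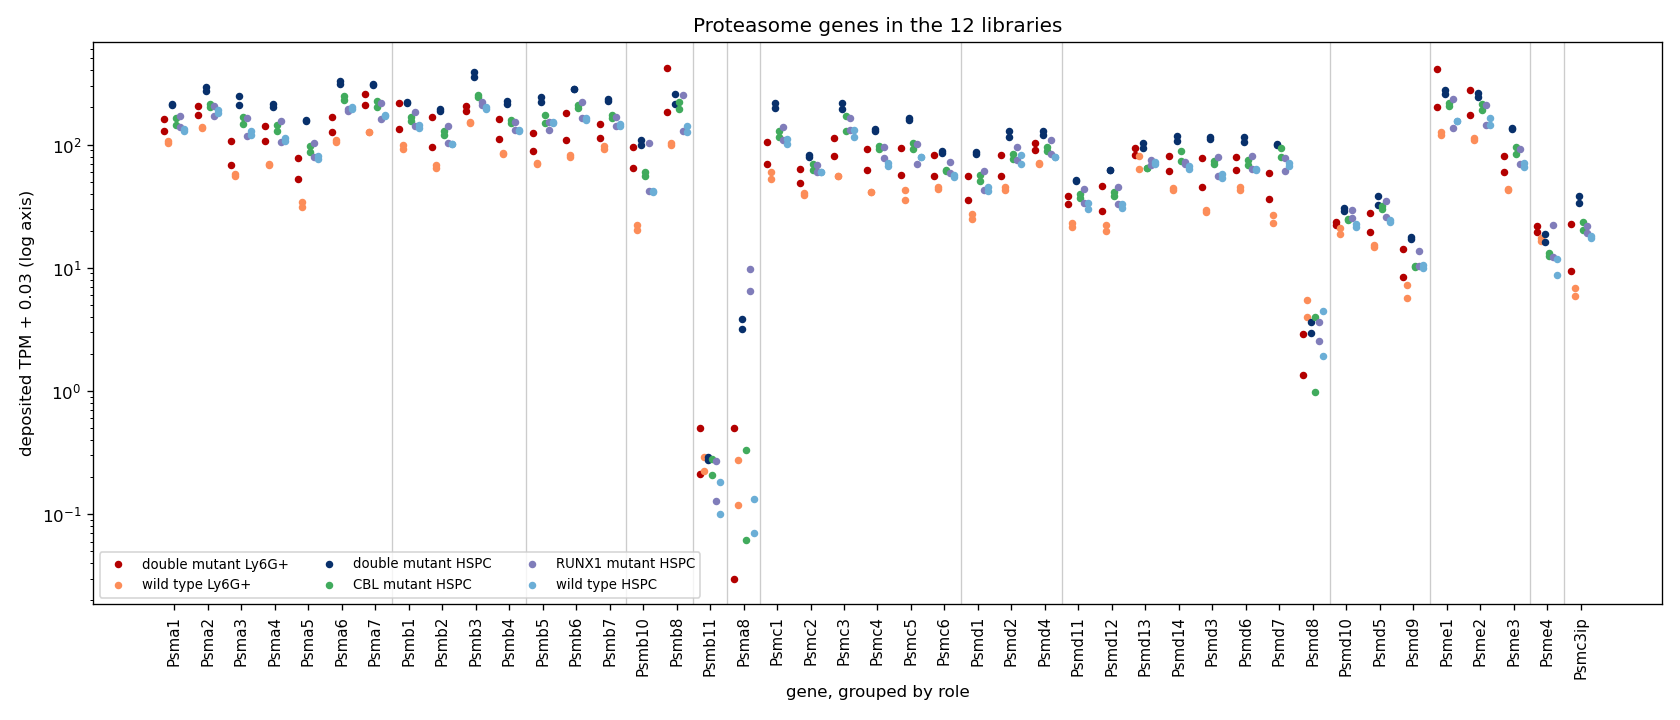
Deposited TPM (log axis, with 0.03 added so that 0 can be drawn) of the 43 genes in each of the 12 libraries; each point is 1 library, colours are the 6 groups and grey lines separate the roles. Double mutant HSPC hold the highest group mean for 37 genes and wild type Ly6G+ cells the lowest for 38, before any scaling between libraries, and Psma8 is above 3 TPM only in RUNX1 mutant and double mutant HSPC.

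The 17 genes of the 19S cap summed to between 0.517 and 0.563 of the 14 constitutive core genes in every library, with RUNX1 mutant HSPC highest at 0.563 and 0.553 and the next library at 0.551. The 43 genes together took 0.660% and 0.675% of TPM in double mutant HSPC, 0.446% and 0.492% in CBL mutant HSPC, 0.502% and 0.379% in RUNX1 mutant HSPC, and 0.391% and 0.378% in wild type HSPC. In Ly6G+ cells their share was 0.533% and 0.344% in double mutant cells, against 0.249% and 0.245% in wild type cells. The shares of double mutant HSPC lay above those of all other libraries, and those of wild type Ly6G+ cells below them. Such shares are not scaled between libraries. In double mutant against wild type HSPC the unscaled median log2 fold change was 0.76, against 0.56 over all genes, and 0.13 against 0.02 after scaling. Between wild type Ly6G+ cells and wild type HSPC the unscaled median was -0.60, against -0.04 over all genes. In bulk RNA such as this, fewer cells of a type and less RNA per cell cannot be told apart.

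Several calls depended on how libraries were scaled to each other. Fold changes were fitted with limma on log2(TPM + 1) after scaling by a trimmed mean (scaled TPM), and a gene was called at a Benjamini-Hochberg adjusted p under 0.05 over all genes tested. Of the 43 genes, 42 passed the filter of at least 1 TPM in 2 libraries in the HSPC fit and in the fit of all libraries, and 41 did so in the Ly6G+ fit, where Psma8 also failed. Without scaling, the median of all genes itself shifted by 0.56 log2 units between double mutant and wild type HSPC, by 0.33 between CBL mutant and wild type, by 0.45 between RUNX1 mutant and wild type, by 0.22 between double and CBL mutant and by 0.58 between double mutant and wild type Ly6G+ cells.

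**Figure D2:**
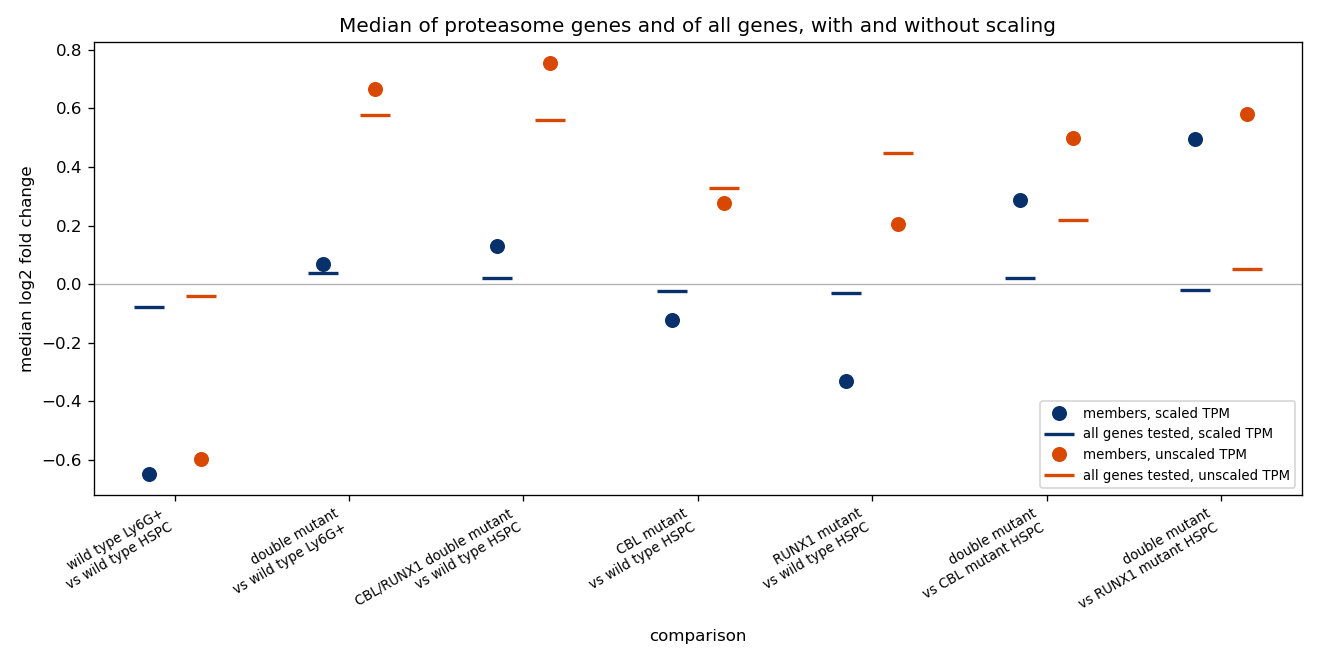
Median log2 fold change (vertical axis, tested over compared group) in 7 comparisons, for the proteasome genes (circles) and for all genes tested (bars), with scaled TPM in blue and unscaled TPM in orange. In CBL mutant against wild type HSPC the median of the proteasome genes is -0.12 with scaling and 0.28 without, and in RUNX1 mutant against wild type HSPC it is -0.33 with scaling and 0.21 without, while the median of all genes lies above that of the proteasome genes in both settings.

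Between the wild type populations, genes of every large subcomplex were lower in Ly6G+ cells than in HSPC. Of the 42 tested, 29 were called lower and 0 higher, where 22.7% of all 13155 genes were called lower and 39.1% in either direction. The median log2 fold change was -0.65, against -0.08 over all genes. On the scaled values, 38 of the 42 had both Ly6G+ libraries below both HSPC libraries, as did 45.7% of all genes. This compares the populations in the absence of either mutation. The neutrophil genes S100a8 and S100a9 were abundant in both, at 34.5% and 33.5% of TPM in wild type Ly6G+ cells and 28.9% and 31.4% in wild type HSPC.

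By role, 4 of 7 alpha ring genes, 3 of 4 structural and 3 of 3 catalytic beta genes, 5 of 6 base ATPases, 2 of 3 other base genes, 6 of 8 lid genes, 2 of 3 chaperones and 2 of 3 11S genes were called lower. Psmd7, a lid gene that partners the deubiquitinase subunit encoded by Psmd14, had 23.1 and 26.6 TPM in wild type Ly6G+ cells, against 70.5 and 67.2 TPM in wild type HSPC. Its groups were far apart, and its log2 fold change of -1.49 ± 0.16 (SE) was called at an adjusted p of 0.000651. Alpha ring Psma5 had 34.0 and 31.1 TPM in Ly6G+ cells, against 80.1 and 76.4 TPM in HSPC, with a log2 fold change of -1.29 ± 0.14 (adjusted p = 0.000722). Psma3, another alpha ring gene, fell by 1.18 and the base ATPase gene Psmc3 also by 1.18 on the log2 scale. Catalytic Psmb5 and Psmb6 fell by 1.15 and 1.03, and lid gene Psmd3 fell by 0.96. Psme3, whose product forms the nuclear 11S ring, had 42.5 and 43.7 TPM in Ly6G+ cells, against 71.4 and 66.4 TPM in HSPC, and fell by 0.71.

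Not every gene was lower. Psme4 (PA200), a cap that opens the core without ATP or ubiquitin, had 17.4 and 16.4 TPM in Ly6G+ cells, against 11.8 and 8.78 TPM in HSPC. Its groups did not overlap, and the log2 fold change of 0.64 ± 0.25 was not called (adjusted p = 0.0718). Psmd13 of the lid had 81.2 and 63.3 TPM in Ly6G+ cells, against 71.7 and 69.2 TPM in HSPC, with overlapping groups and a log2 fold change of -0.02. Psmb10 was called lower, at -0.996, and Psmb8, at -0.46, was not (adjusted p = 0.133). Psmc3ip, the gene that is no subunit, was called lower by 1.42.

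Of 31 tested genes for proteasome assembly and ubiquitin supply, 15 were called lower in wild type Ly6G+ cells and 3 higher, with a median of -0.39. All 4 genes of the Psmg assembly chaperones were called lower. Psmg1 had 7.43 and 6.15 TPM in Ly6G+ cells, against 31.9 and 27.9 TPM in HSPC, a log2 fold change of -2.07 ± 0.22 (adjusted p = 0.00073). Usp14, a deubiquitinase on the base, fell by 1.13, and the shuttle gene Rad23b fell by 1.14. Of the 12 genes for class I peptide loading and its regulators, 5 were called higher, among them Irf1 at 1.54, where 16.4% of all genes were called higher, and 1 was called lower. Of 8 cycling-cell markers 7 were called lower, with sums of 435 to 546 TPM in wild type Ly6G+ cells, against 1041 to 1174 TPM in wild type HSPC. Plasma cell and B lineage markers summed to 11196 to 12068 TPM in wild type Ly6G+ cells, against 40363 to 41917 TPM in wild type HSPC. Of these 8 markers 2 were called higher and 0 lower. The part of either list in the result was not tested. The count of 29 became 37 (36 lower, Psme4 higher) without either library 1 or library 2 of the uneven pairs, where 64.5% and 63.4% of all genes were called, 15 with unscaled TPM (24.3% of all genes), 13 without the second wild type HSPC library (16.7%), and 16 and 17 without the first and the second wild type Ly6G+ library (21.6% and 18.2%).

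**Figure D3:**
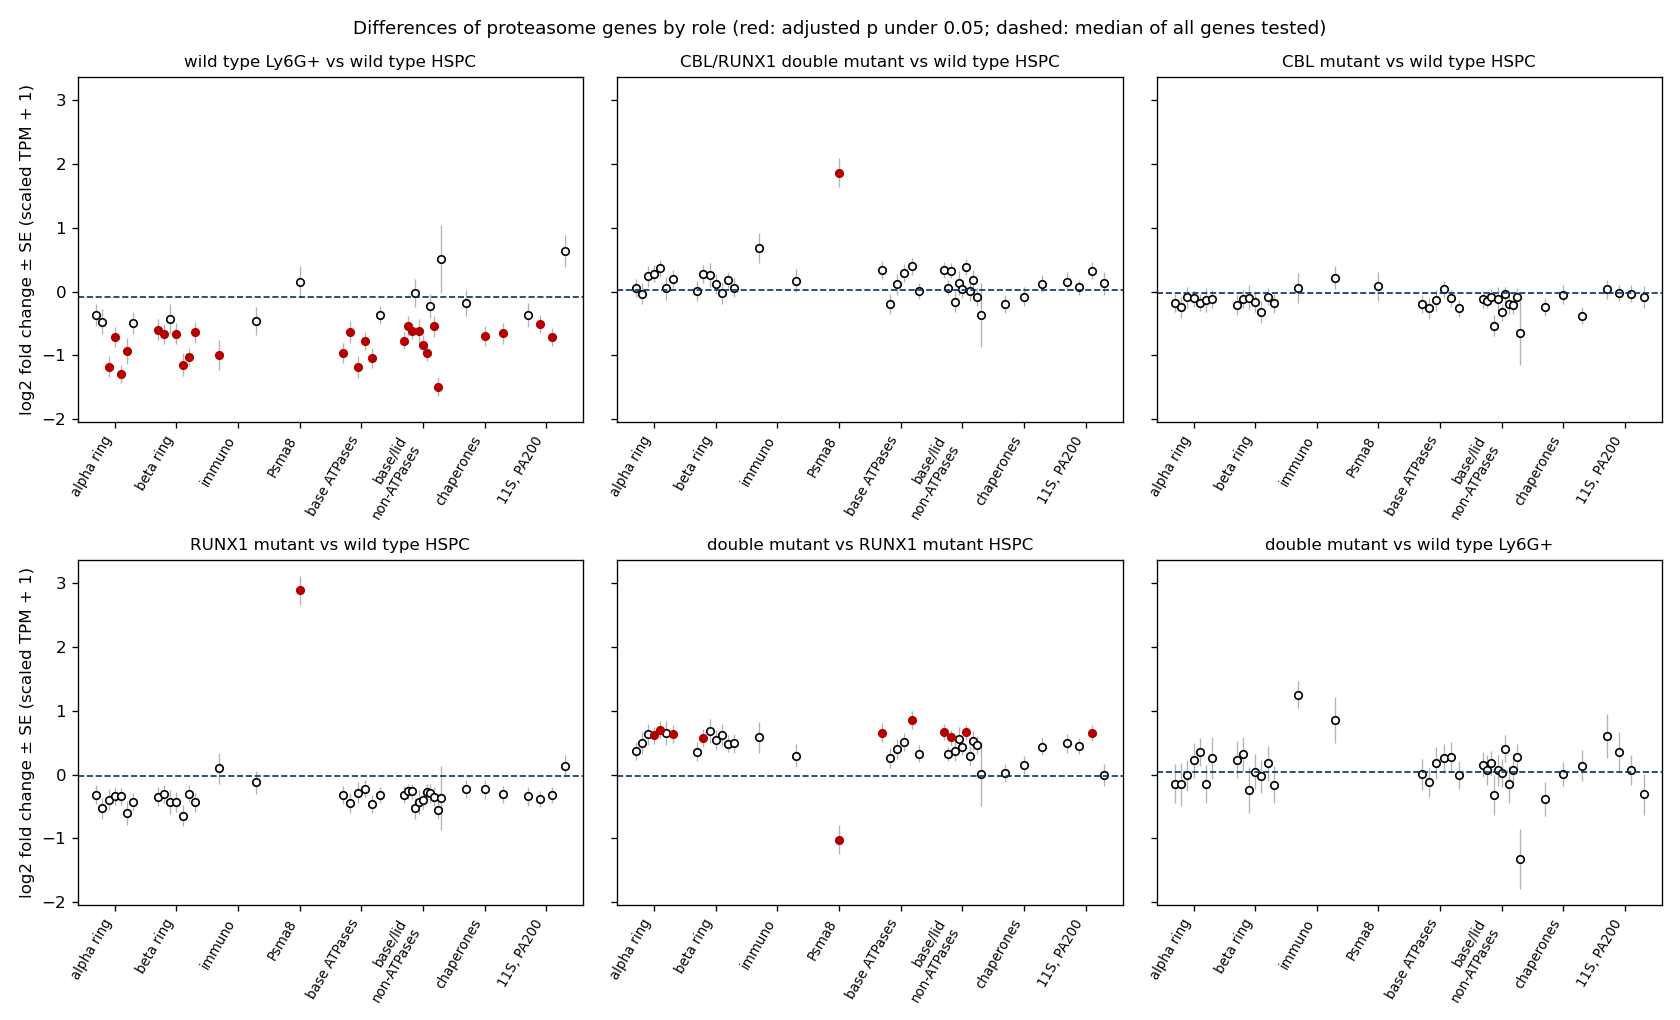
Log2 fold change of scaled TPM + 1 (vertical axis, ± SE) of the tested proteasome genes in 6 comparisons, grouped by role, with Psmc3ip not drawn; red points have an adjusted p under 0.05 and the dashed line is the median of all genes tested. In wild type Ly6G+ cells against wild type HSPC nearly all points lie below 0, in RUNX1 mutant against wild type HSPC all but Psma8, Psmb10 and Psme4 do with scaling (with unscaled TPM 39 of 42 lie above 0), and in double mutant against RUNX1 mutant HSPC 40 of the 42 tested lie above 0.

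In double mutant against wild type HSPC, Psma8 was the only proteasome gene called after scaling. It passed the filter on low values only through double mutant and RUNX1 mutant HSPC, where it was high. The count was 1 of 42, where 11.1% of all 12421 genes were called (4.56% higher and 6.54% lower). The median was 0.13, against 0.02 over all genes, and 34 of the 42 lay above 0. Both double mutant libraries were above both wild type libraries for 19 genes, as for 36.6% of all genes. Among those with the largest differences in their role, base ATPase Psmc5 had 129 and 147 scaled TPM in double mutant HSPC, against 96.6 and 113 in wild type HSPC. The groups did not overlap, and the log2 fold change of 0.39 ± 0.14 gave an adjusted p of 0.0983. Lid gene Psmd3 differed by 0.39 ± 0.12 (adjusted p = 0.0769), alpha ring Psma5 by 0.36 ± 0.13 (adjusted p = 0.104) and Psme3 by 0.33 ± 0.13 (adjusted p = 0.123). Immunoproteasome Psmb10 had 89.0 and 88.6 scaled TPM, against 51.2 and 59.1 in wild type HSPC, with a log2 fold change of 0.68 ± 0.24 (adjusted p = 0.0999), and Psmb8 differed by 0.17 ± 0.18 (adjusted p = 0.535).

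Left unscaled, the same libraries gave another picture. Then 36 of the 42 genes were called higher and 0 lower, with a median of 0.76 against 0.56 over all genes, and 31.9% of all genes were called higher and 3.36% lower. Psma5 had 156 and 157 deposited TPM in double mutant HSPC, against 80.1 and 76.4 in wild type HSPC, and Psmc5 159 and 165, against 79.2 and 78.9. In the deposited values these groups lie far apart, and in the scaled ones they are closer without overlap. Neutrophil markers moved the other way, with 8 of 10 called lower on scaled TPM. Cycling-cell markers had a median of -0.38, with 1 of 8 above 0 and 0 called. Of 8 plasma cell and B lineage markers 4 were called lower, with sums of 220 to 222 TPM in double mutant HSPC, against 40363 to 41917 TPM in wild type HSPC. The part of these lists in the result was not tested. Of the 31 assembly and ubiquitin genes, 2 were called higher on scaled TPM, Usp14 at 0.61 and Rad23b at 0.57, and 0 lower. Without library 1 of the uneven pairs 6 proteasome genes were called, all higher, where 36% of all genes were called, without library 2 it was 5 (35.3%) and in a fit of the compared groups alone 6 (39.9%), so these shares lay under those of all genes, and without any 1 of the 4 compared libraries 0.

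RUNX1 mutant HSPC showed lower scaled values for nearly all standard proteasome genes, none of which was called, and higher ones with unscaled TPM. The called genes were 6 of 12421 (0.0483%), and Psma8 was the only one called higher (0.00805%, with 0.0403% lower). It passed the filter on low values only through RUNX1 mutant and double mutant HSPC, where it was high. With unscaled TPM it was also the 1 proteasome gene called, where 0.0322% of all genes were called higher and 0.0805% lower. The median of the 42 was -0.33, against -0.03 over all genes (unscaled 0.21, against 0.45). In 37 of the 42 both RUNX1 mutant libraries lay below both wild type libraries on the scaled values, as in 27% of all genes, and for Psma8 both lay above, as in 22.1%. Catalytic Psmb5 had 117 and 139 scaled TPM in RUNX1 mutant HSPC, against 184 and 217 in wild type HSPC, a log2 fold change of -0.64 ± 0.17 (adjusted p = 0.222). Alpha ring Psma6 differed by -0.60 ± 0.19 (adjusted p = 0.245), lid gene Psmd7 by -0.55 ± 0.14 (adjusted p = 0.214), Psmc5 by -0.46 ± 0.14 (adjusted p = 0.241; 0.08 unscaled) and 11S gene Psme2 by -0.38 ± 0.12 (adjusted p = 0.248; 0.17 unscaled). At an unadjusted p under 0.05, 19 of the 42 were lower and 1 higher, as were 8.98% and 7.54% of all genes. Psmb8 differed by -0.12 (0.42 unscaled) and Psmb10 by 0.10. Without the second RUNX1 mutant library 13 of the 42 were called, 11 of them lower, where 29.3% of all genes were called, without the first only Psma8 (0.492% of all genes), and without either wild type library 0.

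In CBL mutant HSPC, 0 of the 42 were called, where 0.556% of all genes were (0.314% higher and 0.242% lower), and none with unscaled TPM, where 0.419% were called higher and 0.217% lower. At an unadjusted p under 0.05, 0 were higher and 2 lower, against 5.36% and 5.41% of all genes. The median was -0.12, against -0.02 over all genes, and 5 of the 42 lay above 0, where 5810 of all 12421 genes did. With unscaled TPM the median was 0.28, against 0.33 over all genes, and 40 of the 42 lay above 0. Catalytic Psmb5 had 149 and 172 scaled TPM in CBL mutant HSPC, against 184 and 217 in wild type HSPC, without overlap and with a log2 fold change of -0.32 ± 0.17 (adjusted p = 0.554; 0.09 unscaled). Psma2 of the alpha ring differed by -0.25 and Psmc2 of the base by -0.27 (0.16 and 0.14 unscaled). For 17 genes both CBL mutant libraries lay below both wild type libraries, as for 31.3% of all genes, and for 1, Psmb8 (0.21), above, as for 25.5%. Psmb10 differed by 0.05. Psmd8, the scarce lid gene, had 0.951 and 3.98 TPM in CBL mutant HSPC, against 4.39 and 1.91 TPM in wild type HSPC, so its difference of -0.65 ± 0.50 lay within the spread of the libraries. In a fit of the compared groups alone, Psmd13 was the 1 proteasome gene called, lower, where 7.4% of all genes were called.

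Set against the single mutants, double mutant HSPC had positive medians of the proteasome genes with and without scaling, and standard subunits were called against RUNX1 mutant and not against CBL mutant HSPC, a difference that was not itself tested. Against RUNX1 mutant HSPC, 11 of 42 were called higher and 1, Psma8, lower, where 5.89% of all genes were called higher, 3.2% lower and 9.09% in either direction. The median was 0.50, against -0.02 over all genes (unscaled 0.58, against 0.05), and in 35 genes both double mutant libraries lay above both RUNX1 mutant libraries, as in 28.5% of all genes, and for Psma8 both lay below, as in 25.5%. The 11 called higher were alpha ring Psma4, Psma5 and Psma7, structural Psmb2, base Psmc1, Psmc5 and Psmd1, lid Psmd3 and Psmd12, 11S Psme3, and Psmc3ip. Psmc5 had 129 and 147 scaled TPM in double mutant HSPC, against 76.0 and 74.7 in RUNX1 mutant HSPC, a log2 fold change of 0.86 ± 0.14 (adjusted p = 0.021). Psmd3 had 90.4 and 102, against 60.6 and 59.8 scaled TPM (0.66 ± 0.12, adjusted p = 0.0274), and Psma5 had 127 and 140, against 77.9 and 84.9 scaled TPM (0.71 ± 0.13, adjusted p = 0.0288). All 3 genes had groups without overlap. The other 8 differed by 0.58 to 0.69, and structural Psmb3, at 0.69 ± 0.19, was not called (adjusted p = 0.0665). Psmb10 differed by 0.58 (adjusted p = 0.162) and Psmb8 by 0.30 (adjusted p = 0.322).

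The assembly chaperone genes Psmg1 (0.81) and Psmg4 (0.87), the ubiquitin receptor Adrm1 (0.65), Usp14 (0.80) and Rad23b (0.60) were called higher in double mutant than in RUNX1 mutant HSPC, 5 of 31 in the list with 0 lower. Neutrophil markers had a median of -1.40 in this comparison, with 1 of 10 called lower, and 2 of 8 plasma cell and B lineage markers were called lower, with sums of 220 to 222 TPM in double mutant, against 2787 to 14836 TPM in RUNX1 mutant HSPC; their part in the result was not tested. The proteasome count of 12 was 17 without the first RUNX1 mutant library and 23 without the second, where 28.9% and 20.2% of all genes were called, 0 without either double mutant library, 4 with unscaled TPM (where 2.21% of all genes were called higher and 0.99% lower), 1 without the filter on low values and 0 in a fit of the compared groups alone, where the spread rests on 4 libraries. Both comparisons of RUNX1 mutant HSPC use the same RUNX1 mutant libraries, so they are not independent of each other.

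Against CBL mutant HSPC only Psma8 was called, 1 of 42, and it passed the filter only through RUNX1 mutant and double mutant HSPC. Of all genes, 1.47% were called higher, 2.21% lower and 3.67% in either direction. The median was 0.29, against 0.02 over all genes (unscaled 0.50, against 0.22), and 35 genes had both double mutant libraries above both CBL mutant libraries, as did 34.2% of all genes, while 0 had both below, as did 30.4%. Alpha ring Psma5 had 127 and 140 scaled TPM in double mutant HSPC, against 87.3 and 95.7 in CBL mutant HSPC, a difference of 0.54 ± 0.13 (adjusted p = 0.0685). Base ATPase Psmc1 differed by 0.54 ± 0.14 (adjusted p = 0.0844), base Psmd1 by 0.46 ± 0.13 (adjusted p = 0.0857), Psmb10 by 0.63 (adjusted p = 0.162), Psmb2 by 0.39, Psme3 by 0.36 and Psmb8 by -0.04 (0.18 unscaled). The count was 10 without library 1 and also without library 2 of the uneven pairs (23.7% and 23.4% of all genes), 7 in a fit of the compared groups alone (18.2%), 3 with unscaled TPM (where 1.85% of all genes were called higher and 1.89% lower) and 0 without any 1 of the 4 compared libraries.

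Psma8, the testis-type alpha gene, behaved unlike the rest. It had 9.66 and 6.40 TPM in RUNX1 mutant HSPC and 3.17 and 3.84 TPM in double mutant HSPC, against 0.301 and 0.0318 TPM in CBL mutant HSPC and 0.102 and 0.0401 TPM in wild type HSPC. In Ly6G+ cells it was listed at 0 and 0.469 TPM in double mutant and at 0.0892 and 0.243 TPM in wild type cells. The order of the group means was RUNX1 mutant HSPC (8.03 ± 2.30, SD, n = 2), double mutant HSPC (3.5045 ± 0.474), and then the other 4 groups, which overlap each other below 0.5 TPM. Even its highest level was far below that of Psma7, whose lowest library had 126 TPM.

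The log2 fold change of Psma8 on log2(scaled TPM + 1), which compresses changes of genes this low, was 2.89 ± 0.23 in RUNX1 mutant against wild type HSPC (adjusted p = 0.00854). It was 1.86 ± 0.23 in double mutant against wild type (adjusted p = 0.0112) and 1.78 ± 0.23 in double against CBL mutant HSPC (adjusted p = 0.0152). Between double and RUNX1 mutant HSPC it was -1.03 ± 0.23 (adjusted p = 0.0411), and between CBL mutant and wild type 0.09. In limma fits the difference between double and RUNX1 mutant HSPC was not called with unscaled TPM (adjusted p = 0.115) or pseudocount 0.1 (0.224). It was also not called without the filter on low values (0.0644) or in a fit of the compared groups alone (0.162). Without the first and the second double mutant library the log2 fold change was -0.86 and -1.18. These comparisons share libraries, and Psma8 passed the filter on low values only through RUNX1 mutant and double mutant HSPC. Both groups lay above all wild type and CBL mutant libraries with every scaling. A limma fit of the compared groups alone gave 2.79 in RUNX1 mutant against wild type HSPC, not called (adjusted p = 0.139). Without the first RUNX1 mutant library the fold change against wild type was 2.81 (adjusted p = 0.00634), and it was 2.94 without the second. Leaving out either wild type library gave 2.97 and 2.90 with adjusted p of 0.219 and 0.262, and a pseudocount of 0.1 gave 5.26 with an adjusted p of 0.0974. In double mutant against wild type HSPC, leaving out 1 of the 4 libraries gave adjusted p of 0.0665 to 0.131.

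**Figure D4:**
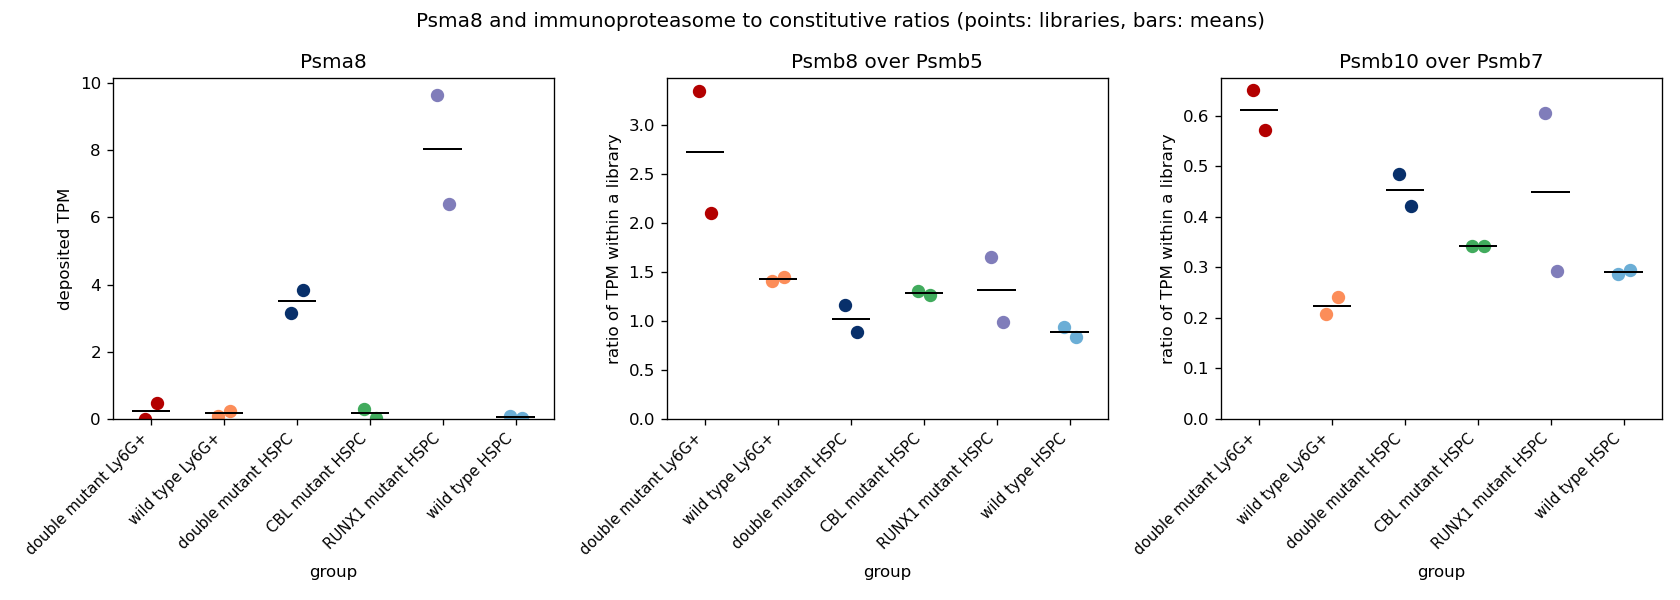
Psma8 in deposited TPM (left) and the ratios Psmb8 over Psmb5 and Psmb10 over Psmb7 within each library (middle, right), by group; points are the 2 libraries of a group and bars their means. Psma8 is at 3.17 to 9.66 TPM in RUNX1 mutant and double mutant HSPC and below 0.5 TPM in the other 8 libraries, and both ratios are highest in the double mutant Ly6G+ libraries, although for Psmb10 over Psmb7 the first RUNX1 mutant library (0.605) lies between them.

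None of the 31-base words of Psma8 occurs in Psma7, and 0.27% occur in any other gene of the reference transcripts. The 6 testis markers summed to 0.423 to 3.48 TPM in RUNX1 mutant and 0.505 to 0.790 TPM in double mutant HSPC, against 0.410 to 0.958 TPM in wild type HSPC, and Prm2 and Tnp1 were at 0 in all libraries. The largest single value was that of Ddx4, with 2.02 TPM in the first RUNX1 mutant and 2.62 TPM in the first double mutant Ly6G+ library. Genes next to Psma8 were chosen after their values were seen. Upstream Ss18 had 55.0 and 33.2 TPM in RUNX1 mutant and 39.1 and 33.6 TPM in double mutant HSPC, against 23.8 and 22.5 TPM in wild type HSPC. Downstream Taf4b had 3.91 and 0.7997 TPM in RUNX1 mutant and 5.19 and 3.93 TPM in double mutant HSPC, against 1.24 and 0.951 TPM in wild type HSPC. Kctd1, farther downstream, had 13.2 and 5.59 TPM in RUNX1 mutant and 10.3 and 6.45 TPM in double mutant HSPC, against 5.05 and 4.84 TPM in wild type HSPC. Zfp521, farther upstream and not tested, had 6.32 and 0.499 TPM in RUNX1 mutant and 0.298 and 0.183 TPM in double mutant HSPC, against 0.160 and 0.102 TPM in wild type HSPC. On scaled TPM Ss18, Taf4b and Kctd1 differed by 0.33, 0.16 and 0.22 in RUNX1 mutant and by 0.01, 0.99 and 0.08 in double mutant against wild type HSPC, all positive and none called.

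The largest positive differences between double mutant and wild type Ly6G+ cells were those of the immunoproteasome genes, and neither was called. Psmb10 had 96.4 and 64.2 TPM in double mutant Ly6G+ cells, against 20.4 and 22.0 TPM in wild type Ly6G+ cells. On scaled values this was 62.3 and 65.2 against 24.9 and 27.5, with no overlap and a log2 fold change of 1.25 ± 0.21 (adjusted p = 0.26). Psmb8 had 419 and 185 TPM, against 98.5 and 102 TPM, and a log2 fold change of 0.86 ± 0.36 (adjusted p = 0.365). Limma called 0 of all 11744 genes in this comparison (0%), and at an unadjusted p under 0.05 it had 1 proteasome gene higher, Psmb10, and 1 lower, Psmd8, where 6.97% and 7.14% of all genes passed. In the fit of all 12 libraries, which shares the spread over all groups, Psmb10 was called (adjusted p = 0.0208) and Psmb8 was not (adjusted p = 0.051).

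Over all 41 genes tested the median was 0.07, against 0.04 over all genes (unscaled 0.67, against 0.58), and for 18 of 41 both double mutant libraries lay above both wild type libraries, as for 32.9% of all genes. Alpha ring Psma5 differed by 0.35 ± 0.21 (adjusted p = 0.414), structural Psmb2 by 0.33 ± 0.27, Psmc5 by 0.28 ± 0.24 and Psme1 by 0.60 ± 0.34 (adjusted p = 0.404). Psme1 and Psme2 encode the interferon-inducible 11S ring, and Psme1 had 408 and 200 TPM in double mutant, against 120 and 127 TPM in wild type Ly6G+ cells. Psmd8 had 1.32 and 2.85 TPM, against 5.48 and 3.95 TPM, a difference of -1.33 ± 0.47 (adjusted p = 0.351). Without library 1 of the double mutant, Psmb8 (0.60, adjusted p = 0.0463) and Psmb10 (1.28, adjusted p = 0.0128) were the 2 proteasome genes called, where 11.2% of all genes were. Without library 2, 6 were called higher and 7 lower, where 61.2% of all genes were called; in both cases the lone double mutant library is assumed to vary like the wild type pair. Markers of dendritic cells and MHC class II summed to 4872 and 1716 TPM in double mutant, against 507 and 621 TPM in wild type Ly6G+ cells, the neutrophil pair S100a8 and S100a9 took 7.23% and 24.8% of TPM, against 34.5% and 33.5%, and their part in the result was not tested.

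Ratios within a library need no scaling between libraries. Psmb8 over Psmb5, the gene it replaces, was 3.35 and 2.10 in double mutant Ly6G+ cells, against 1.41 and 1.45 in wild type Ly6G+ cells. In HSPC it was 1.17 and 0.884 in double mutant, 1.31 and 1.27 in CBL mutant and 1.65 and 0.986 in RUNX1 mutant cells, against 0.944 and 0.835 in wild type cells. Psmb10 over Psmb7 was 0.652 and 0.573 in double mutant Ly6G+ cells, against 0.208 and 0.241 in wild type Ly6G+ cells. In HSPC it was 0.484 and 0.421 in double mutant cells, against 0.287 and 0.295 in wild type cells. It was 0.342 and 0.342 in CBL mutant and 0.605 and 0.293 in RUNX1 mutant HSPC, so the rise was not particular to the double mutant. For Psmb10 over Psmb7 the double mutant libraries lay above the wild type ones in both populations, and for Psmb8 over Psmb5 they did so in Ly6G+ cells and overlapped in HSPC. An exact two-sided permutation test of the double mutant difference within both populations gave p = 0.0556 for Psmb10 over Psmb7, the smallest that its 36 arrangements allow, and p = 0.111 for Psmb8 over Psmb5 (adjusted over the 5 ratios tested, 0.278 each). The test adds the differences of both populations, so differences of opposite sign cancel and it cannot show them. For Psme1 over Psme3 the log2 difference was -0.18 in HSPC and 0.53 in Ly6G+ cells (exact p = 0.556). For Psme2 over Psme3 it was -0.27 and 0.29 (exact p = 1). In both ratios the double mutant libraries lay below the wild type ones in HSPC and above them in Ly6G+ cells. For the 19S to 20S ratio the exact p was 0.5. The 71.7% of the 31-base words of Psmb5 that other genes share, most of them with Gm3375, make its level uncertain, as do the 58.7% of Psma5 and the 33.5% of Psme2.

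Whether the double mutant difference itself differed between Ly6G+ cells and HSPC was tested as an interaction over all 12 libraries. Of the 42 proteasome genes 0 were called, where 0.0684% of all 13155 genes were, and at an unadjusted p under 0.05 there were 0 higher and 1 lower, Psma8 (-1.83 ± 0.36, adjusted p = 0.154). Psmb8 had an interaction of 0.70 ± 0.32 (adjusted p = 0.53), Psmb10 of 0.59 ± 0.32 (adjusted p = 0.617) and Psme1 of 0.46 ± 0.27 (adjusted p = 0.624). The largest of the other roles were Psmd8 at -0.97, Psmb3 at -0.49, Psme4 at -0.42, Psmc1 at -0.32 and Psma3 at -0.23, none called. The median of the 42 was -0.03, against 0.06 over all genes. Psma8 passed the filter of this fit only through RUNX1 mutant and double mutant HSPC. In Ly6G+ cells it stayed at or below 0.469 TPM, so its interaction largely restates its difference in HSPC. Without library 1 of the uneven pairs, Psma8 was called at -1.50 (adjusted p = 0.0303), where 7.27% of all genes were called. Without library 2 of both pairs 6 were called (Psmb8, Psmb10 and Psme1 higher, Psma8, Psmb3 and Psme4 lower), where 35.2% of all genes were, and without the second double mutant Ly6G+ library alone Psma8 at -2.13 and Psmb8 at 0.96, where 15.6% were.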

How the data were processed

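RNA sequencing was deposited as TPM, estimated by the authors with kallisto on mm10 after bcl2fastq and CASAVA 1.8, per the submitters' processing notes; the kallisto version and the annotation are not given in the sources used here. The table is named as counts but holds TPM that sum to between 933370 and 981994 per library. Read depth is unknown, so no counting interval is given. Symbols were found for 27458 of the 28987 identifiers (94.7%).

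TPM were scaled by unweighted trimmed mean factors (trimming 0.3 of log ratios and 0.05 of levels) and genes with at least 1 TPM in 2 libraries of a fit were kept. Limma 3.58.1 in R 4.3.3, with trended, robust moderation, was fitted on log2(scaled TPM + 1) with group means only: 8 HSPC libraries, 4 Ly6G+ libraries, or all 12 for the population comparison and the interaction. Benjamini-Hochberg adjustment ran over all genes tested, and 0.05 was the threshold. Counts of libraries that do not overlap use scaled values. The SE rests on a spread pooled over the groups of a fit, and with 2 libraries a group p-values measure the spread between these libraries. The fitting code was tested on simulated data.

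The genes and lists were chosen with earlier results of these data known. Named in each comparison were called genes (the 6 with the smallest p where over 12), Psmb8, Psmb10, Psma8 and the gene with the largest difference in each role; other genes named were added for description. Sequences are from RefSeq, and shared 31-base words were counted in reference transcripts that may differ from the authors' index; 34 of the 43 genes share under 10% of theirs. Alternatives were other scalings, pseudocount 0.1, no filter, a replicate block, another set of libraries in the fit, and leaving out libraries. Some genes of the related lists are not reported here.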

Additional observations from a re-analysis of the deposited data

How the results depend on the processing

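With 2 libraries a group, most counts of proteasome genes called depend on the settings. Unscaled TPM gave 36 in double mutant against wild type HSPC (1 with scaling) and 3 against CBL mutant HSPC (1). It gave 4 against RUNX1 mutant HSPC (12) and 15 between the wild type populations (29). Of all genes, 35.3%, 3.74%, 3.2% and 24.3% were called in these unscaled fits, in this order. Pseudocount 0.1 gave 0 in RUNX1 mutant against wild type HSPC (1), where 0.0242% of all genes were called. No filter gave 1 in double against RUNX1 mutant HSPC (12), where 1.8% of all genes were called. Fits of the compared groups alone gave 6 in double mutant against wild type, 1 in CBL mutant against wild type and 0 in RUNX1 mutant against wild type HSPC. They gave 7 in double against CBL mutant and 0 in double against RUNX1 mutant HSPC. Of all genes, 39.9%, 7.4%, 0.00872%, 18.2% and 0% were called in these fits, in this order. All 12 libraries gave 1 in Ly6G+ cells, where 7.76% of all genes were called. Leaving out library 1 of the RUNX1 mutant HSPC and double mutant Ly6G+ pairs was chosen after seeing the data. It left 1 library in a group, so medians of the proteasome genes are given here. The median was 0.15 in double mutant against wild type HSPC and 0.29 in double against CBL mutant HSPC. It was 0.16 in Ly6G+ cells and 0.01 in the interaction, each against 0.03 over all genes. Leaving out library 2 of both, also chosen after seeing the data, gave 5, 10, 13 and 6 in these, 13 in RUNX1 mutant against wild type and 23 in double against RUNX1 mutant HSPC. The causes were not tested.

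Leaving out 1 library at a time left 1 library in a compared group, so only medians of the proteasome genes are given here. They ran from 0.04 to 0.24 in double mutant against wild type HSPC and from 0.18 to 0.40 against CBL mutant HSPC. The range was -0.41 to -0.26 in RUNX1 mutant against wild type and 0.42 to 0.60 in double against RUNX1 mutant HSPC. It was -0.03 to 0.16 in Ly6G+ cells, -0.74 to -0.56 between the wild type populations and -0.16 to 0.06 in the interaction. Over all genes, the medians of these fits lay between -0.09 and 0.07. The cause was not tested.

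With the replicate number of the titles as a block, the counts were 2 in double mutant against wild type HSPC, 3 against CBL mutant HSPC and 26 against RUNX1 mutant HSPC. They were 32 between the wild type populations and 0 in Ly6G+ cells. Of all genes, 11.9%, 2.97%, 10.9%, 41.9% and 0.0596% were called in these fits, in this order. The labels do not say what a number marks, and the deviations of same-numbered libraries correlated between -0.0139 and 0.463 over 15 pairs of groups, over 0.1 in 6 of them and not in all, so the numbers are not taken to pair libraries.

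Of 100 alternative counts, 55 stayed within 1.5 times, but 31 of these were 0 that stayed 0, in comparisons where few or no genes were called, and show no stability. Signs of uncalled single genes turned with unscaled TPM in CBL mutant against wild type HSPC (Psma2 0.16, Psmb5 0.0939, Psmc2 0.14, Psme4 0.30), in RUNX1 mutant against wild type HSPC (Psmb8 0.42, Psmc5 0.0801, Psme2 0.17) and in double against CBL mutant HSPC (Psmb8 0.18). Leaving out 1 library at a time, values in CBL mutant against wild type HSPC ran from -0.0496 to 0.155 for Psmb10, from -0.17 to 0.00803 for Psme4, from -0.07995 to 0.25 for Psma8 and from -1.31 to 0.0166 for Psmd8. In RUNX1 mutant against wild type HSPC they ran from -0.28 to 0.49 for Psmb10, with -0.0031 without wild type library 1, and from -0.35 to 0.12 for Psmb8, and in double against CBL mutant HSPC from -0.12 to 0.0479 for Psmb8, with 0.03 without double mutant library 2. Without library 1 of both uneven pairs Psmb10 was at -0.28 in RUNX1 mutant against wild type HSPC. TPM without read numbers limit what can be said of genes below 1 TPM.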
